A study of Homo sapiens with 12 samples.

Results

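To compare what the loss of each hypoxia-inducible factor (HIF) isoform left of the hypoxic transcriptome, HIF1α-ko cells were set against HIF2α-ko cells. The cells were U87 (U-87 MG), a glioblastoma line of human origin that is widely used in culture. The comparison took the libraries that the labels assign to the knockout of HIF1α and to the knockout of HIF2α, 3 of each and 6 of the 12 libraries in the series. The other 6 libraries, from vector cells and from HIF1α/2α-ko cells, entered no test of this comparison and are given beside it. By the labels HIF1α-ko cells had lost HIF1α, HIF2α-ko cells HIF2α and HIF1α/2α-ko cells both, while vector cells carried the empty vector. By western blot the study reports that HIF2α protein rose after HIF1α knockout, and HIF1α protein after HIF2α knockout. The single knockouts may thus differ by more than the loss of 1 isoform each. All 4 groups were cultured in 1% O2, for 72 h by the record of the experiment, whereas the general methods of the study give 12 h for the detection of mRNA. How the genes were disrupted, and whether each line is 1 clone or a pool of cells, is not given in the sources used here, so that the loss of a gene and the history of a line cannot be told apart. Nothing says that libraries of a group came from separate cultures, and the p-values below then measure only the spread between these libraries.

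HIF is a pair of proteins, an α subunit that is destroyed when oxygen is plentiful and a β subunit (ARNT) that is always present. Prolyl hydroxylases such as EGLN1 mark the α subunit, VHL then directs it to the proteasome, and low oxygen stops the marking. HIF1α, encoded by HIF1A, and HIF2α, encoded by EPAS1, bind the same short core, ACGTG or GCGTG. HIF1α is best known for genes of glycolysis and mitophagy, and HIF2α for genes of growth factor signalling and erythropoietin. Glioblastomas hold hypoxic zones in which both isoforms are found.

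The deposited values are TPM, the share of a transcript in its library scaled to gene length and to a common total, and keep no read depth. The columns of the 12 libraries sum to between 999955 and 999982. Between 10731 and 11388 genes reached 1 TPM in a library of either knockout. Of the markers of the line, VIM, a filament of mesenchymal and glial cells, stood at 9610.4, 11409.9 and 10892 TPM in HIF1α-ko and 6675, 7682 and 7901 TPM in HIF2α-ko, and the surface receptor CD44 at 399, 481 and 405 TPM in HIF1α-ko and 499, 830.5 and 1412 TPM in HIF2α-ko. The astrocyte markers GFAP and S100B were below 1 TPM in all 12 libraries, and CDKN2A was listed at 0 in all 12. Of the defining markers of blood, microglial, endothelial, epithelial, liver and neural cells, PTPRC, CD3E, ALB, AIF1, RBFOX3, MBP, EPCAM and CD14 were below 1 TPM in every library, and PECAM1 in the 6 libraries compared, while the endothelial VWF lay between 0.545 and 2.93 TPM and the epithelial KRT18 between 1.83 and 3.57 TPM in them. Of the 21 genes of this identity list 7 were tested, VIM was higher in HIF1α-ko but not with median ratio scaling, and KRT18 was lower, a call lost when replicate 3 of HIF1α-ko or replicate 2 or 3 of HIF2α-ko was left out. Replicate 1 stood apart in both knockouts: the 13 proteins encoded by mitochondrial DNA summed to 17151 TPM in HIF1α-ko replicate 1, against 9114 and 7468 TPM in the other two, and to 8841 TPM in HIF2α-ko replicate 1, against 6104 and 6322 TPM.

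Between the 2 single knockouts the targeted genes followed the labels. HIF1A (GRCh38 chr14:61695513-61748259) was measured at 57.3, 49.5 and 38.6 TPM in HIF1α-ko and 108, 76.1 and 76.6 TPM in HIF2α-ko. Its level was lower in every HIF1α-ko library than in any HIF2α-ko library, and differed by -0.83 ± 0.19 (SE) on the log2(TPM + 1) scale, the scale of every log2 difference below, taken as HIF1α-ko minus HIF2α-ko (adjusted p = 0.015, limma with Benjamini-Hochberg adjustment, which gave every adjusted p below). This call was lost without HIF1α-ko replicate 3 (adjusted p = 0.051). EPAS1 (GRCh38 chr2:46293667-46386703) was measured at 251, 288 and 255 TPM in HIF1α-ko and 87.6, 118 and 116 TPM in HIF2α-ko. The HIF2α-ko libraries lay below all 3 HIF1α-ko libraries (log2 difference 1.31 ± 0.13, adjusted p = 0.000796). Neither transcript was absent from its own knockout: HIF1A in HIF1α-ko was 48.5 ± 9.35 TPM (mean ± SD, n = 3 here and below) against 124 ± 23.5 TPM in vector, and EPAS1 in HIF2α-ko was 107 ± 17 TPM against 322 ± 31.5 TPM. In HIF1α/2α-ko, HIF1A stood at 75.5 ± 11.9 TPM and EPAS1 at 117 ± 14.4 TPM. The HIF1A values there, 89.2, 67.8 and 69.4 TPM, lay above every HIF1α-ko library and overlapped those of HIF2α-ko. TPM counts a disrupted transcript together with an intact one, so these levels say nothing of the protein.

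Many genes differed between the 2 knockouts, in both directions. Of 11731 genes tested, 3913 passed an adjusted p of 0.05 (33.4%): 2846 were higher in HIF1α-ko (24.3%) and 1067 were lower (9.10%). At a log2 difference of at least 1, 780 genes were called (6.65%), of which 422 were higher (3.60%) and 358 were lower (3.05%). The libraries of the 2 groups did not overlap for 5857 genes (49.9%), of which 4371 were higher (37.3%) and 1486 lower (12.7%). The median difference over all genes was 0.23. The 10 most abundant genes made up 19.2% to 19.7% of TPM in HIF1α-ko libraries and 22.8% to 23.9% in HIF2α-ko libraries. When the 6 libraries were scaled to a common median ratio, this shift was 0.01, and 1453 genes were higher (12.4%) and 1681 lower (14.3%). With quantile normalization the shift was 0.07 and 3260 genes were called (27.8%), with 1751 genes higher (14.9%) and 1509 lower (12.9%). The split into higher and lower genes thus changed with the scaling, and the differences below stand against a median of 0.23. Of the 3913 genes, 2520 were also called in the same direction with median ratio scaling and 0 in the opposite direction. With the replicate number as a block, 4672 genes were higher (39.8%) and 1571 lower (13.4%), among them 3906 of the 3913. Without HIF1α-ko replicate 2 the calls fell to 2099, and without HIF1α-ko replicate 3 to 2053. Leaving out HIF2α-ko replicate 2 or replicate 3 left 2416 or 2573 calls, and leaving out replicate 1 of both groups gave 4024 genes higher and 1545 lower.

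**Figure D1:**
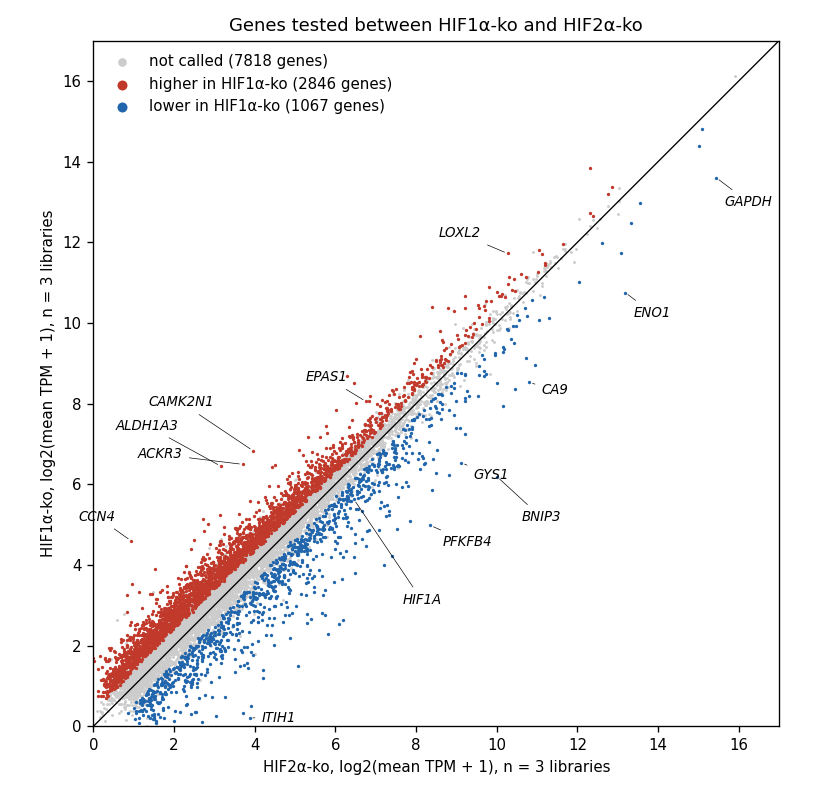
Mean level of each of the 11731 genes tested, as log2(mean TPM + 1), in HIF2α-ko (x axis) and HIF1α-ko (y axis), each point 1 gene and the line marking equal levels. The 1067 lower genes (blue) include the abundant glycolytic genes GAPDH and ENO1 together with BNIP3, PFKFB4 and CA9, and the 2846 higher genes (red) include ALDH1A3, CAMK2N1, ACKR3 and LOXL2.

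The 250 bases before the start of 6 genes are shown from RefSeq (GRCh38.p14), because HIF binds a short core in the DNA and these genes span the comparison: 5 that lay far lower in HIF1α-ko (the mitophagy receptor BNIP3, the surface enzyme CA9, the dehydrogenase DHRS13, the oxygen sensor EGLN1 and the glycolytic ENO1) and 1 that lay far higher (ALDH1A3). The letters searched were ACGTG and GCGTG on either strand, which read CACGT and CACGC on the reverse strand. ACGTG within CACGTG counts on each strand and the 2 matches overlap. Matches are in capitals.
BNIP3 (chr10:131981924-131982173, reverse strand): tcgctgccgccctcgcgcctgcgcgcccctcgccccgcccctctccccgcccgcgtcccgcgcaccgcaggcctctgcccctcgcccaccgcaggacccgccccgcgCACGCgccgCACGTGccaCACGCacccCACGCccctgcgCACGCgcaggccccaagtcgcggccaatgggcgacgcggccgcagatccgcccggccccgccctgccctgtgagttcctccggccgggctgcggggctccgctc
CA9 (chr9:35673678-35673927, forward strand): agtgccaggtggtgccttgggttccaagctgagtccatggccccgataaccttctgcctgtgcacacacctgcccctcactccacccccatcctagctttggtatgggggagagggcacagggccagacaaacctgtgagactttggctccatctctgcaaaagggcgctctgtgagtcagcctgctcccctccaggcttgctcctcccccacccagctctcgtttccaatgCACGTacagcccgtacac
DHRS13 (chr17:28903080-28903329, reverse strand): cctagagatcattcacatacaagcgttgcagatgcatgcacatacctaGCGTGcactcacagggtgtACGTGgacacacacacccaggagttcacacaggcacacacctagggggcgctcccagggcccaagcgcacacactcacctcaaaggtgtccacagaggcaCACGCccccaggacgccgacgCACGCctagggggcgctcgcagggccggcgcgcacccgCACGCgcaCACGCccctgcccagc
EGLN1 (chr1:231422288-231422537, reverse strand): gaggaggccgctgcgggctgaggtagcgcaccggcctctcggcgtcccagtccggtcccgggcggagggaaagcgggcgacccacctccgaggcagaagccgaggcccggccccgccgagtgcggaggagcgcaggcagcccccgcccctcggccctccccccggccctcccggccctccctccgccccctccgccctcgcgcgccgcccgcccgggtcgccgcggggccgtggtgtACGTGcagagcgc
ENO1 (chr1:8878687-8878936, reverse strand): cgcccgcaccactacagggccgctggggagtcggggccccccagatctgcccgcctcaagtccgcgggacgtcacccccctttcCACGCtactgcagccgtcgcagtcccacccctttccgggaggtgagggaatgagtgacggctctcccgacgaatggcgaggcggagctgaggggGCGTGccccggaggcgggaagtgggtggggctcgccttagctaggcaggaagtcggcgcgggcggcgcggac
ALDH1A3 (chr15:100879581-100879830, forward strand): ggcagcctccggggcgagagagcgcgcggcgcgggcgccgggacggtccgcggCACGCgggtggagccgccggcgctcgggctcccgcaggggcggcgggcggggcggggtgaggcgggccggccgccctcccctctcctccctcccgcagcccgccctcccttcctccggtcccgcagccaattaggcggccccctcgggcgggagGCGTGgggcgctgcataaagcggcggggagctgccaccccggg
The stretches of BNIP3 and DHRS13 hold 6 matches each. Those of CA9 and EGLN1 hold 1 match, 18 and 13 bases before the start, and those of ENO1 and ALDH1A3 hold 2. In BNIP3 the 6 matches begin between 143 and 104 bases before the start, and the pair on opposite strands forms a single CACGTG. ALDH1A3 was the gene that lay higher in HIF1α-ko, so that matches were present on both sides of the comparison.

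The core motif was common on both sides of the comparison. Promoters, taken from 250 bases before to 50 bases after the start, were found for 9439 of the 11731 genes, 13967 promoters in all. Of these 60.3% held a match, against 48.4% of all 35116 promoters in the RefSeq table. The share was 61.3% for the genes lower in HIF1α-ko, 59.6% for the genes higher and 60.4% for genes not called. For differences of at least 1 it was 63.7% on the lower side and 58.1% on the higher side. Promoters rich in CG hold such letters more often, and the lower side had fewer CG dinucleotides, with a median of 23 per promoter against 27 on the higher side and 24 among genes not called. With promoters grouped by their CG dinucleotides, the share at a difference of at least 1 was larger on the lower side than on the higher side in each of 3 groups, a difference that was not tested. Among promoters with 0 to 19 it was 46.7% on the lower side, 41.6% on the higher side and 42.6% where no difference was called. Among those with 20 to 30 it was 75.3%, 62.1% and 68.5%. Among promoters with 31 to 69 CG dinucleotides, 76.5% held a match on the lower side at a difference of at least 1, 67.5% on the higher side and 72.3% where no difference was called. Among the 26 promoters of the common hypoxia markers 88.5% held a match, and 64.2% of the 53 promoters of glycolysis genes did. A share this high was not particular to hypoxia markers. It was 91.2% for the 34 promoters of ribosome biogenesis genes and 91.7% for the 12 of stem cell markers. The lowest share of a list was 33.3%, for the 12 promoters of cytokines and chemokines. Differences between lists were not tested. A match is a description of letters and was not tested as a binding site.

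Of the HIF subunits and oxygen sensors, all 11 were tested. In HIF1α-ko 3 were higher and 4 were lower, where 24.3% and 9.10% of all genes were. These counts include the targeted genes, EPAS1 among the higher and HIF1A among the lower. Only 2 of the 11 were lower without HIF1α-ko replicate 3 or HIF2α-ko replicate 2. EGLN1, the main prolyl hydroxylase of HIF α subunits, stood at 4.47, 6.91 and 6.80 TPM in HIF1α-ko and 25.1, 31.4 and 32.2 TPM in HIF2α-ko (log2 difference -2.13 ± 0.19, adjusted p = 0.000389). The libraries were separated by a wide gap, and the vector level of 20.3 ± 4.38 TPM lay between them. EGLN3, another prolyl hydroxylase, differed in the opposite direction, with 19.3, 22.3 and 24.7 TPM in HIF1α-ko and 7.09, 12.7 and 13.2 TPM in HIF2α-ko (log2 difference 0.99 ± 0.23, adjusted p = 0.016). In HIF1α/2α-ko EGLN3 was 1.98 ± 1.11 TPM, lower than in either single knockout. Its call was lost without HIF1α-ko replicate 2 or replicate 3. CITED2, which competes with HIF for the coactivator CBP/p300, was lower in HIF1α-ko (47.8 against 71.5 TPM, log2 difference -0.58 ± 0.16, adjusted p = 0.033), a call lost without HIF1α-ko replicate 1, HIF1α-ko replicate 3, HIF2α-ko replicate 2 or HIF2α-ko replicate 3. HIF3A, the third α subunit, was low in both groups and lower in HIF1α-ko (1.93 against 4.01 TPM, log2 difference -0.78 ± 0.17, adjusted p = 0.014), and lost its call without HIF2α-ko replicate 2. ARNT2, a β subunit of neural tissue, was higher in HIF1α-ko (2.21 against 0.989 TPM, log2 difference 0.69 ± 0.14, adjusted p = 0.0092), a call lost with quantile normalization (adjusted p = 0.052). For ARNT itself the libraries overlapped, at 21.2, 27 and 23.8 TPM in HIF1α-ko and 17.7, 21.6 and 21.5 TPM in HIF2α-ko, and the difference of 0.23 became -0.01 with median ratio scaling. VHL, the asparagine hydroxylase HIF1AN and EGLN2 did not pass the test, with differences of 0.45, 0.37 and 0.42. With the replicate block VHL (adjusted p = 0.0091) and HIF1AN (adjusted p = 0.018) were called, which gave 5 higher and 4 lower.

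**Figure D2:**
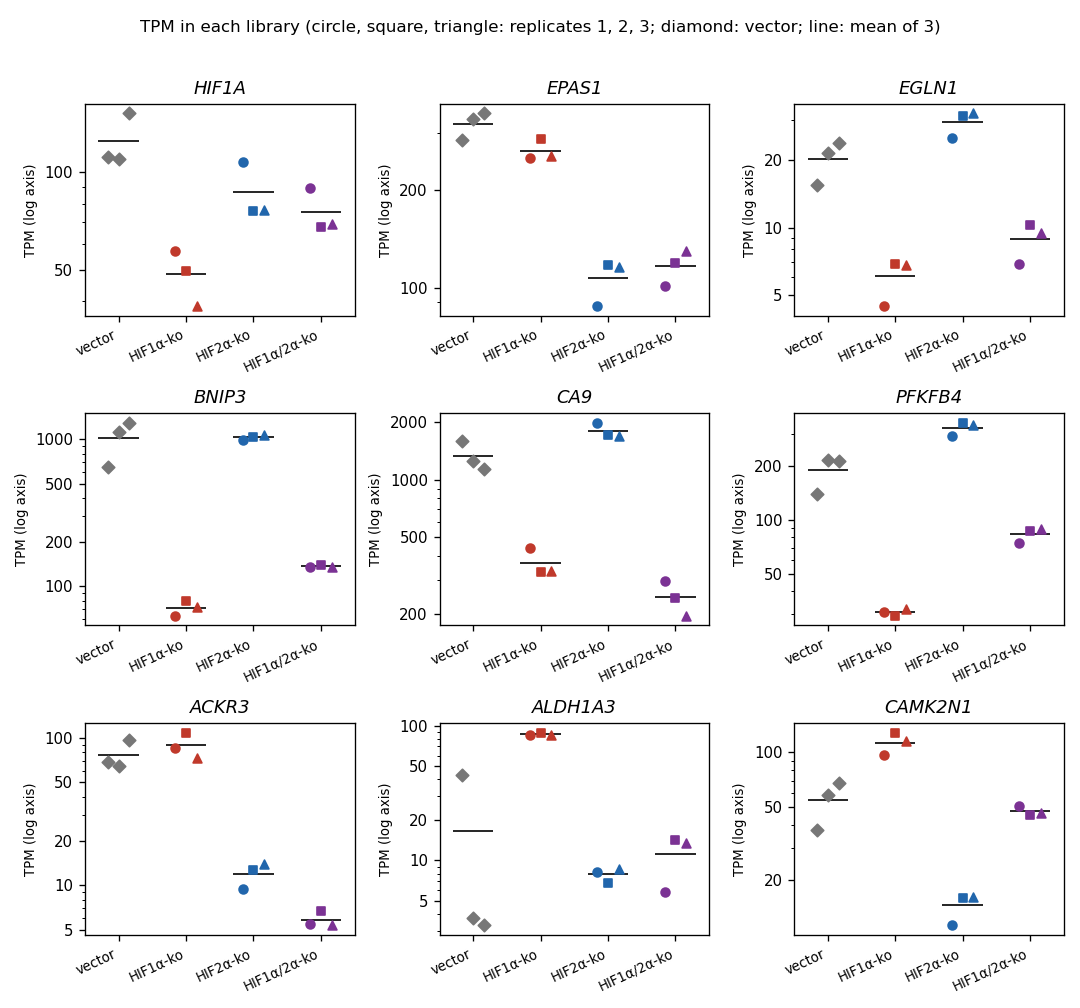
TPM of 9 genes in each of the 12 libraries (log axis), with circles, squares and triangles for replicates 1, 2 and 3, diamonds for vector libraries, which carry no number, and a line at the mean of 3. EGLN1, BNIP3, CA9 and PFKFB4 lay lower in HIF1α-ko and HIF1α/2α-ko than in vector and HIF2α-ko, whereas ACKR3 was low in HIF2α-ko and HIF1α/2α-ko, and ALDH1A3 was high in all 3 HIF1α-ko libraries and in 1 vector library.

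Glycolysis had the list median farthest from that of all genes among the 20 lists plotted. Of 26 genes of glycolysis and pyruvate control, 21 were lower in HIF1α-ko and 0 were higher, where 9.10% of all genes tested were lower. The median difference was -1.68, which is 1.91 below the median of all genes. Together the 26 genes made up 3.75%, 3.21% and 3.18% of TPM in HIF1α-ko and 9.76%, 8.57% and 8.42% in HIF2α-ko. The groups did not overlap, and the means were 3.38% ± 0.323 and 8.92% ± 0.734 (SD, n = 3). The vector libraries held 7.57% ± 0.949 and the HIF1α/2α-ko libraries 3.78% ± 0.378. By these means HIF1α-ko lay nearer to the dual knockout and HIF2α-ko nearer to vector. The sums are weighted by abundant members, GAPDH above all, and do not place each gene. Single members differed in this, as GYS1 and SLC16A3 show below. Each HIF2α-ko library still lay above the vector libraries, which held 6.49%, 8.28% and 7.94%. The list median of HIF1α/2α-ko minus vector was -0.67, against 0.21 for all genes.

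The largest differences of the list were in PFKFB4 and PFKFB3, regulators of glycolytic flow. They are given first, with GYS1 and SLC16A3, as the 4 members with the smallest p. PFKFB4, which makes and breaks the activator of phosphofructokinase, stood at 30.8, 29.1 and 31.7 TPM in HIF1α-ko and 294, 347 and 338 TPM in HIF2α-ko (log2 difference -3.37 ± 0.10, adjusted p = 7.82e-06). PFKFB3, its close relative, stood at 15.2, 15.3 and 14.5 TPM in HIF1α-ko and 141, 159.9 and 135 TPM in HIF2α-ko (log2 difference -3.19 ± 0.11, adjusted p = 1.13e-05). Mean TPM of the 2 genes was lower in HIF1α-ko by factors of 10.7 and 9.68. GYS1, the muscle-type glycogen synthase, stood at 88.5, 96.9 and 89.1 TPM in HIF1α-ko and 497, 594 and 579 TPM in HIF2α-ko (log2 difference -2.59 ± 0.10, adjusted p = 1.24e-05), and SLC16A3, which exports lactate, at 78.7, 78 and 74.8 TPM in HIF1α-ko and 340.0, 371 and 368 TPM in HIF2α-ko (log2 difference -2.21 ± 0.09, adjusted p = 1.24e-05). For all 4 genes the libraries were far apart and each of the fits with 1 library left out kept the call. The last 2 parted in the other groups. GYS1 was 490 ± 61.4 TPM in vector and 86.6 ± 12.4 TPM in HIF1α/2α-ko, whereas SLC16A3 was 129 ± 34.9 and 143 ± 4.32 TPM. The remaining members are given along the pathway and, like other members of lists that are named below by mean alone, were singled out after their values were seen. Glucose enters through SLC2A1 and SLC2A3, of which SLC2A1 did not pass the test (1068 against 1175 TPM, log2 difference -0.14, 95% interval -0.35 to 0.08) and SLC2A3 was lower (623 against 1129 TPM). HK2 and PFKM, which act in the preparatory steps, did not pass either, at 0.15 and 0.30, while GPI (168 against 547 TPM) and PFKL (89.8 against 295 TPM) were lower.

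The aldolases parted. ALDOA stood at 5965, 6298 and 6116 TPM in HIF1α-ko and 6513, 6042 and 5609.6 TPM in HIF2α-ko, with overlapping libraries and a difference of 0.02 (95% interval -0.17 to 0.21). ALDOC, its brain-type relative, fell from 1148 ± 243 TPM in HIF2α-ko to 244 ± 70.1 TPM in HIF1α-ko (log2 difference -2.25 ± 0.21, adjusted p = 0.000536). In the payoff steps TPI1, GAPDH, PGK1, PGAM1, ENO1, ENO2, PKM and LDHA were all lower in HIF1α-ko. GAPDH, often taken as a reference gene, stood at 14438, 11361 and 11405 TPM in HIF1α-ko and 49371, 42393 and 42037 TPM in HIF2α-ko (log2 difference -1.85 ± 0.12, adjusted p = 0.000105). ENO1 stood at 1982, 1556 and 1637 TPM in HIF1α-ko and 10478, 8802 and 8657 TPM in HIF2α-ko (log2 difference -2.43 ± 0.12, adjusted p = 3.93e-05), and LDHA, which turns pyruvate to lactate, at 446 against 815 TPM (log2 difference -0.85 ± 0.19, adjusted p = 0.013). The call of LDHA was lost without HIF1α-ko replicate 3, and that of PKM without HIF1α-ko replicate 2, HIF1α-ko replicate 3 or HIF2α-ko replicate 1. PDK1 and PDK3, kinases that close pyruvate dehydrogenase, were lower too, with 5.46 against 19.4 TPM and 0.663 against 8.66 TPM. With median ratio scaling 22 members were lower and 0 higher, and with the replicate block 22 were lower and 1 higher.

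Hypoxia markers outside glycolysis moved mostly in the same direction. Of 24 markers 23 were tested, 16 were lower in HIF1α-ko and 2 were higher, with a median difference of -0.85. The shares over all genes were 9.10% lower and 24.3% higher. CA9, a carbonic anhydrase of the cell surface and a standard hypoxia marker, stood at 439.8, 329 and 335 TPM in HIF1α-ko and 1977, 1704 and 1694 TPM in HIF2α-ko (log2 difference -2.29 ± 0.13, adjusted p = 6.5e-05). ANGPTL4, a secreted inhibitor of lipoprotein lipase, stood at 61.5, 53.1 and 55.5 TPM in HIF1α-ko and 256, 389.7 and 368 TPM in HIF2α-ko (log2 difference -2.53 ± 0.16, adjusted p = 0.000106). KCTD11 (9.12 against 43.6 TPM, log2 difference -2.14 ± 0.13, adjusted p = 7.51e-05) and INSIG2, which retains the sterol sensor in the endoplasmic reticulum (17.2 against 71.9 TPM, log2 difference -1.99 ± 0.13, adjusted p = 0.000116), were lower by similar amounts. None of these 4 genes overlapped between groups. The 2 markers that were higher in HIF1α-ko were CA12, another surface carbonic anhydrase, at 1353, 1383 and 1417 TPM in HIF1α-ko and 618, 875 and 725 TPM in HIF2α-ko (log2 difference 0.92 ± 0.13, adjusted p = 0.0024), and VEGFA, the angiogenic factor, at 1934, 1894 and 2168 TPM in HIF1α-ko and 985, 1224 and 1512 TPM in HIF2α-ko (log2 difference 0.71 ± 0.15, adjusted p = 0.012). With median ratio scaling CA12 differed by 0.66 (adjusted p = 0.0074) and VEGFA by 0.45 (adjusted p = 0.055), and 19 markers were lower and 1 was higher. The call of VEGFA was also lost without HIF1α-ko replicate 3. KDM3A, AK4, MXI1, PLIN2 and STC2 did not pass the test.

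BNIP3, a receptor that targets mitochondria for autophagy, had the largest difference of any gene that met the rule for naming. It stood at 63.1, 80.1 and 72 TPM in HIF1α-ko and 982, 1036 and 1074 TPM in HIF2α-ko (log2 difference -3.83 ± 0.11, adjusted p = 7.82e-06), a mean lower by a factor of 14.4. The vector level was 1019 ± 334 TPM and that of HIF1α/2α-ko 137 ± 2.15 TPM. Its relative BNIP3L stood at 35.7, 49.8 and 45.5 TPM in HIF1α-ko and 86.4, 59.7 and 63.5 TPM in HIF2α-ko (log2 difference -0.66 ± 0.18, adjusted p = 0.027) and lost its call without HIF1α-ko replicate 3 or HIF2α-ko replicate 1. Of 14 genes of mitophagy and the mitochondrial switch to hypoxia 11 were tested. Of these 4 were lower and 0 higher, where 9.10% and 24.3% of all genes were. The other two were the mitochondrial protease LONP1 (154 against 233 TPM, log2 difference -0.59 ± 0.10, adjusted p = 0.0049) and the transcription factor FOXO3 (13.9 against 23 TPM, log2 difference -0.69 ± 0.14, adjusted p = 0.0089). PINK1 (-0.25), FUNDC1 (0.21) and COX4I1 (0.12) were not called. With the replicate block 6 members were lower and 2 higher.

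The 12 largest differences on the lower side also held genes outside these lists. ITIH1, a liver-type plasma protein that binds hyaluronan, stood at 0.176, 0.0602 and 0.231 TPM in HIF1α-ko and 14.4, 13 and 13.4 TPM in HIF2α-ko (log2 difference -3.66 ± 0.13, adjusted p = 1.24e-05), and GPR146, a receptor without a settled ligand, at 0.502, 2.30 and 2.70 TPM in HIF1α-ko and 25.1, 30.5 and 42.7 TPM in HIF2α-ko (log2 difference -3.65 ± 0.35, adjusted p = 0.00057). DPYSL4, of the collapsin response mediator family, stood at 3.56, 3.91 and 4.25 TPM in HIF1α-ko and 48.4, 59.1 and 57.9 TPM in HIF2α-ko (log2 difference -3.51 ± 0.13, adjusted p = 1.24e-05). In HIF1α-ko the 3 genes stayed under 5 TPM, and in HIF2α-ko all 9 values were above 12 TPM. DHRS13, a short-chain dehydrogenase, had 3.75, 5.37 and 5.25 TPM in HIF1α-ko and 30.7, 85 and 83.7 TPM in HIF2α-ko (log2 difference -3.42 ± 0.37, adjusted p = 0.001), so that HIF2α-ko replicate 1 lay well below the other two. That libraries of the 2 groups do not overlap was a condition for all 12 genes. MT3, the brain metallothionein, was listed at 0 in HIF1α-ko replicate 2 and at 0.291 and 0.457 TPM in the other two, against 10.8, 12.9 and 12.5 TPM in HIF2α-ko. ZP1 (17.6 against 167 TPM) and PPFIA4, a liprin of synapses (5.71 against 52.8 TPM), were lower by -3.23 and -3.02 on the log2 scale. PPAN, needed for ribosome assembly, stood at 5.25 against 71.5 TPM and the receptor P2RY11 at 1.30 against 17.4 TPM. These genes overlap each other and a PPAN-P2RY11 read-through gene on chromosome 19, so how reads were shared among them is uncertain.

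A list of 22 genes taken as preferring HIF2α was written by hand with earlier results of these data known, so its counts are description only. Of these genes 11 reached the filter, 5 were higher in HIF1α-ko and 1 was lower. Their median difference was 0.72, which is 0.49 above that of all genes. That distance shrank when some libraries were left out: the median was 0.41 against 0.27 for all genes without HIF1α-ko replicate 1, 0.48 against 0.19 without HIF2α-ko replicate 1 and 0.53 against 0.25 without HIF2α-ko replicate 2. Among all genes 24.3% were higher. With the replicate block 6 were higher and 2 lower, and 2 were lower when replicate 1 of HIF1α-ko was left out. ACKR3, a scavenger receptor for the chemokine CXCL12, stood at 85.6, 109 and 73.2 TPM in HIF1α-ko and 9.38, 12.6 and 14 TPM in HIF2α-ko (log2 difference 2.79 ± 0.19, adjusted p = 0.000124). Vector cells held 76.8 ± 17.6 TPM and HIF1α/2α-ko cells 5.82 ± 0.732 TPM. The gene was thus low in both groups with a HIF2α knockout and high in HIF1α-ko and vector, and the cause was not tested. LOXL2, which crosslinks collagen, stood at 3469.8, 3506 and 3153 TPM in HIF1α-ko and 1118, 1284 and 1294 TPM in HIF2α-ko (log2 difference 1.46 ± 0.09, adjusted p = 9.38e-05), and TGFA, a ligand of the EGF receptor, at 21.8, 24.1 and 23.5 TPM in HIF1α-ko and 5.76, 7.37 and 10.2 TPM in HIF2α-ko (log2 difference 1.49 ± 0.19, adjusted p = 0.0018). Each of the 3 was separated between groups. IGFBP3 (1890.3 against 892 TPM, log2 difference 1.04 ± 0.21) was higher as well. The exception was BHLHE41, a repressor of the circadian clock, which stood at 7.18, 6.55 and 6.50 TPM in HIF1α-ko and 24.3, 28.2 and 27.4 TPM in HIF2α-ko (log2 difference -1.83 ± 0.12, adjusted p = 0.000121). CCND1 (37.5 against 22.7 TPM, adjusted p = 0.056) was not called.

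Enzymes and proteins of the matrix split by gene. Of 10 collagen hydroxylases and lysyl oxidases tested, 3 were higher in HIF1α-ko and 3 were lower, where 24.3% and 9.10% of all genes were. Median ratio scaling gave 2 higher and 5 lower. P4HA2, a prolyl hydroxylase of collagen, stood at 225, 213 and 241 TPM in HIF1α-ko and 438, 444 and 458 TPM in HIF2α-ko (log2 difference -0.98 ± 0.09, adjusted p = 0.00039), and PLOD1, a lysyl hydroxylase, at 327, 276 and 264 TPM in HIF1α-ko and 659.7, 628 and 601 TPM in HIF2α-ko (log2 difference -1.12 ± 0.10, adjusted p = 0.000495). PLOD3, another lysyl hydroxylase, was higher, at 191, 197 and 189 TPM in HIF1α-ko and 117, 116 and 106 TPM in HIF2α-ko (log2 difference 0.76 ± 0.09, adjusted p = 0.0012). Of 17 collagens and matrix glycoproteins 4 were higher and 1 was lower, no larger shares than the 24.3% and 9.10% of all genes, with 3 higher and 4 lower under median ratio scaling, where the median of 0.12 became -0.11. With the replicate block 6 were higher and 3 lower, and without HIF2α-ko replicate 1 the lower members were 2. COL6A3, a chain of microfibrillar collagen, stood at 1289, 1403 and 1271 TPM in HIF1α-ko and 345, 523 and 453 TPM in HIF2α-ko (log2 difference 1.60 ± 0.15, adjusted p = 0.000496), and COL5A2 at 27.2 against 12 TPM (log2 difference 1.13 ± 0.15, adjusted p = 0.0018). FBN1, the main fibrillin, was higher (69.8 against 44.3 TPM, log2 difference 0.65 ± 0.10, adjusted p = 0.0045) and the laminin chain LAMA4 was lower (14.3 against 24.3 TPM, log2 difference -0.73 ± 0.12, adjusted p = 0.0047).

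Among the 12 largest differences on the higher side were signalling genes of several kinds. CCN4, a matricellular target of WNT signalling, stood at 18.3, 25.2 and 26.2 TPM in HIF1α-ko and 0.741, 0.977 and 0.999 TPM in HIF2α-ko (log2 difference 3.66 ± 0.17, adjusted p = 3.14e-05). ALDH1A3, which makes retinoic acid and is used as a marker of mesenchymal glioma stem cells, stood at 85.5, 88.9 and 85 TPM in HIF1α-ko and 8.27, 6.77 and 8.67 TPM in HIF2α-ko (log2 difference 3.30 ± 0.12, adjusted p = 1.24e-05). Its vector libraries did not form a group, with 43, 3.71 and 3.30 TPM, and its HIF1α/2α-ko libraries held 5.79, 14.3 and 13.5 TPM. CAMK2N1, an inhibitor of the kinase CaMKII, stood at 96, 128 and 115 TPM in HIF1α-ko and 11.3, 16 and 16.2 TPM in HIF2α-ko (log2 difference 2.88 ± 0.17, adjusted p = 7.51e-05), with the vector (54.5 ± 15.5 TPM) and dual knockout (47.7 ± 2.82 TPM) between the 2 groups. VAT1L stood at 368, 449.8 and 416 TPM in HIF1α-ko and 66.4, 79.9 and 84.5 TPM in HIF2α-ko (log2 difference 2.41 ± 0.12, adjusted p = 3.98e-05). TGFBR2, a receptor of TGFβ, stood at 32.9, 46.4 and 24.3 TPM in HIF1α-ko and 5.46, 5.48 and 5.71 TPM in HIF2α-ko (log2 difference 2.39 ± 0.22, adjusted p = 0.000473), with a wide spread in HIF1α-ko. No overlap was a condition for all 12 of these genes. The growth factor FGF18 (10.6 against 0.946 TPM, 2.57 ± 0.28), the AP-1 repressor JDP2 (31.6 against 6.14 TPM, 2.23 ± 0.23), FAM107B (9.01 against 1.18 TPM, 2.20 ± 0.18) and the receptor of melanin-concentrating hormone MCHR1 (23.4 against 4.63 TPM, 2.12 ± 0.13) were also higher. SLC5A3, the myo-inositol transporter (13.8 against 1.87 TPM, 2.35 ± 0.20), overlaps MRPS6, and PCDHGA7 (8.62 against 0.772 TPM, 2.29 ± 0.46) shares exons with its cluster of protocadherins, so both are uncertain.

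Inflammatory genes were divided, with more of them lower in HIF1α-ko. Of 16 cytokines and chemokines tested 6 were lower and 3 higher, with a median of -0.47, where 9.10% of all genes were lower and 24.3% higher. A fit of all 12 libraries called 1 lower and 1 higher. CXCL1, which attracts neutrophils, stood at 16.6, 19 and 19.3 TPM in HIF1α-ko and 30.2, 33.2 and 34.4 TPM in HIF2α-ko (log2 difference -0.80 ± 0.12, adjusted p = 0.003), and CSF2, the growth factor of granulocytes and macrophages, at 20.9, 15.8 and 18.4 TPM in HIF1α-ko and 36.7, 37.4 and 40.0 TPM in HIF2α-ko (log2 difference -1.02 ± 0.13, adjusted p = 0.0018). CXCL8 stood at 153, 357 and 359.6 TPM in HIF1α-ko and 383, 849.6 and 974 TPM in HIF2α-ko (log2 difference -1.34 ± 0.43, adjusted p = 0.046), with a large spread in both groups, and lost its call in 5 of the 6 fits with a library left out. LIF, a cytokine of the IL-6 family, was higher in HIF1α-ko, at 48.7, 49.2 and 46.8 TPM in HIF1α-ko and 21.7, 23.6 and 21.3 TPM in HIF2α-ko (log2 difference 1.09 ± 0.10, adjusted p = 0.000513), and so was CCL2, which attracts monocytes, at 15, 16 and 13.9 TPM in HIF1α-ko and 6.56, 6.53 and 7.74 TPM in HIF2α-ko (log2 difference 1.01 ± 0.13, adjusted p = 0.002). With median ratio scaling 9 were lower and 3 higher, and with the replicate block 11 were lower and 4 higher. Only 3 were lower when replicate 2 or replicate 3 of either knockout was left out, and 10 when replicate 1 of both was. The vector libraries were spread widely for CXCL1, the first of them at 41.8 TPM and the others at 11.3 and 13.2 TPM.

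Of 15 tested genes of NF-κB subunits and feedback 7 were lower in HIF1α-ko and 3 higher, where 9.10% and 24.3% of all genes were. NFKBIA, the inhibitor that NF-κB induces against itself, stood at 104, 112 and 109 TPM in HIF1α-ko and 284, 307 and 219 TPM in HIF2α-ko (log2 difference -1.29 ± 0.13, adjusted p = 0.000812). RELA, the transactivating subunit, stood at 67.7, 76 and 74.3 TPM in HIF1α-ko and 128, 175 and 157 TPM in HIF2α-ko (log2 difference -1.06 ± 0.13, adjusted p = 0.0015), and TNFAIP2 at 36.3, 35.6 and 34.4 TPM in HIF1α-ko and 67.5, 65.6 and 63.7 TPM in HIF2α-ko (log2 difference -0.87 ± 0.09, adjusted p = 0.001). BIRC3, an inhibitor of apoptosis, was low in both groups (0.493 against 2.08 TPM, log2 difference -1.04 ± 0.13, adjusted p = 0.0016). The subunit RELB (98.9 against 59.4 TPM, 0.72 ± 0.10), BCL3 (52.6 against 32.6 TPM, 0.68 ± 0.13) and NFKBIB (11.3 against 6.56 TPM, 0.69 ± 0.15) were the 3 higher members, of which BCL3 was not called with median ratio scaling (adjusted p = 0.089) and NFKBIB not without HIF2α-ko replicate 2. Of 21 early-response genes 4 were higher and 4 lower, where 24.3% and 9.10% of all genes were. Median ratio scaling gave 2 higher and 9 lower. With replicate 1 of both groups left out 7 were lower. EGR2 was higher, at 22.1, 23.6 and 22.5 TPM in HIF1α-ko and 6.67, 8.60 and 8.35 TPM in HIF2α-ko (log2 difference 1.43 ± 0.13, adjusted p = 0.000513), and JUN was higher (395 against 259 TPM, log2 difference 0.60 ± 0.09, adjusted p = 0.0037) but not called with median ratio scaling (adjusted p = 0.095). JUNB (86 against 183 TPM, log2 difference -1.08 ± 0.10, adjusted p = 0.000513) and IER3 (411 against 819.6 TPM, log2 difference -0.99 ± 0.12, adjusted p = 0.0014) were lower.

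Of 25 tested genes of amino acid supply and the integrated stress response 12 were higher and 3 lower, with a median of 0.57, 0.34 above that of all genes, where 24.3% of all genes were higher. With median ratio scaling 8 were higher and 3 lower. CHAC1, which degrades glutathione, stood at 2.52, 3.61 and 3.04 TPM in HIF1α-ko and 0.555, 0.885 and 0.898 TPM in HIF2α-ko (log2 difference 1.19 ± 0.16, adjusted p = 0.0021), and the glutamine carrier SLC1A5 at 416, 423 and 424 TPM in HIF1α-ko and 265, 302 and 283 TPM in HIF2α-ko (log2 difference 0.57 ± 0.09, adjusted p = 0.0032). ATF4, the transcription factor at the centre of this response, stood at 676, 795 and 675 TPM in HIF1α-ko and 399.8, 529 and 467 TPM in HIF2α-ko (log2 difference 0.63 ± 0.12, adjusted p = 0.0092), and ASNS, which makes asparagine, at 36, 58.6 and 62 TPM in HIF1α-ko and 21.3, 33.1 and 33.1 TPM in HIF2α-ko (log2 difference 0.81 ± 0.25, adjusted p = 0.041). The call of ASNS was lost in 5 of the 6 fits with a library left out and with median ratio scaling (adjusted p = 0.082). Of the 3 lower members, VLDLR (9.95 against 43.6 TPM, log2 difference -2.00 ± 0.19, adjusted p = 0.00057) and DDIT4 (729 against 1383 TPM, log2 difference -0.92 ± 0.10, adjusted p = 0.001), are also in the list of hypoxia markers, and the other was CEBPB (434 against 549.8 TPM), which lost its call in 5 of the 6 fits with a library left out.

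The BCL2 family, which sets the threshold for apoptosis, had 4 called genes of 13 tested, where 33.4% of all genes were called. BAX, the pore-forming effector of apoptosis, stood at 153, 155 and 167 TPM in HIF1α-ko and 153, 134 and 136 TPM in HIF2α-ko and did not pass the test (log2 difference 0.17 ± 0.10, adjusted p = 0.19), and its difference became -0.08 with median ratio scaling. Of 13 members of the BCL2 family 2 were higher, BAK1 (5.50 against 2.75 TPM, log2 difference 0.79 ± 0.15, adjusted p = 0.0074) and BMF (8.10 against 5.77 TPM, log2 difference 0.43 ± 0.13, adjusted p = 0.043), neither of them called with quantile normalization, and 2 were lower, BID (56.1 against 76.3 TPM, log2 difference -0.44 ± 0.10, adjusted p = 0.014) and HRK (3.93 against 6.07 TPM, log2 difference -0.52 ± 0.13, adjusted p = 0.019). The calls of BID and HRK were each lost in 4 of the 6 fits with a library left out, and that of BMF in all 6. The median of the family, 0.08, became -0.14 with median ratio scaling.

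Of the stem cell markers 2 of 11 tested and of the drug efflux transporters 4 of 8 tested were called, where 33.4% of all genes were. ABCG2, the efflux pump of breast cancer resistance, was listed at 0.224, 0.521 and 0.409 TPM in HIF1α-ko and at 0.560, 0.644 and 0.717 TPM in HIF2α-ko. PROM1, which encodes CD133, was listed between 0.103 and 0.218 TPM in HIF1α-ko and between 0.0195 and 0.108 TPM in HIF2α-ko. Both stayed under 1 TPM in all 12 libraries and were not tested. FUT4, which makes the CD15 epitope, stood at 1.27, 1.52 and 1.80 TPM in HIF1α-ko and 1.54, 2.59 and 2.20 TPM in HIF2α-ko, with overlapping libraries (log2 difference -0.29 ± 0.17, adjusted p = 0.21), and was called with quantile normalization (-0.51, adjusted p = 0.034). Of 8 efflux transporters tested, ABCA2 (27.5 against 45.5 TPM, log2 difference -0.71 ± 0.12, adjusted p = 0.0045), ABCC3 (43.3 against 64.1 TPM, log2 difference -0.55 ± 0.11, adjusted p = 0.0097) and ABCC2 (7.13 against 12.5 TPM, log2 difference -0.72 ± 0.15, adjusted p = 0.012) were lower and ABCC10 was higher (2.35 against 1.34 TPM, log2 difference 0.52 ± 0.15, adjusted p = 0.036). The call of ABCC2 was lost without HIF1α-ko replicate 3, and that of ABCC10 in 4 of the 6 fits with a library left out and with median ratio scaling. Of 11 stem cell markers ALDH1A3 was higher and ID3, a repressor of differentiation, was lower, at 3.78, 3.61 and 2.92 TPM in HIF1α-ko and 6.04, 9.82 and 11.4 TPM in HIF2α-ko (log2 difference -1.15 ± 0.22, adjusted p = 0.0086). CD44 did not pass the test (log2 difference -0.97 ± 0.33, adjusted p = 0.053) but was called with median ratio scaling (adjusted p = 0.021) and with the replicate block (adjusted p = 0.029). With the replicate block 2 stem cell markers were higher and 2 lower, as were 2 lower without HIF2α-ko replicate 1, and 2 efflux transporters were higher. ITGA6 differed by 0.24 (adjusted p = 0.18).

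Of 50 genes of G2/M phase 8 were lower in HIF1α-ko and 1 was higher, where 9.10% of all genes were lower and 24.3% higher. The difference was below 0 for 47 of the 50, with a median of -0.49, and for 3618 of all 11731 genes tested. With median ratio scaling 13 were lower and 1 higher, and with the replicate block 31 were lower and 1 higher. The count depended on the libraries. It was 30 when replicate 1 of HIF1α-ko was left out, 1 when replicate 2 and 2 when replicate 3 of that group was, and 2, 4 and 3 when replicates 1, 2 and 3 of HIF2α-ko were left out in turn. With replicate 1 of both groups left out 35 were lower. CDCA2 stood at 8.39, 9.0 and 7.83 TPM in HIF1α-ko and 16.4, 22.4 and 21.6 TPM in HIF2α-ko (log2 difference -1.16 ± 0.15, adjusted p = 0.0021). BIRC5, which encodes survivin, stood at 12.7, 5.58 and 5.70 TPM in HIF1α-ko and 18.6, 14.8 and 24.8 TPM in HIF2α-ko (log2 difference -1.24 ± 0.31, adjusted p = 0.021), with replicate 1 far above the other HIF1α-ko libraries, and lost its call in 4 of the 6 fits with a library left out. JPT1 was lower (32 against 62.3 TPM, log2 difference -0.93 ± 0.21, adjusted p = 0.015) but not called without HIF1α-ko replicate 2, and CTCF was the higher member (6.72 against 3.77 TPM, log2 difference 0.69 ± 0.16, adjusted p = 0.015) but not called without HIF1α-ko replicate 2 or replicate 3. The summed TPM of the 50 genes ranged from 961 to 1469 in HIF1α-ko, from 1292 to 1868 in HIF2α-ko and from 2044 to 2458 in vector. Of 35 genes of S phase 6 were higher and 3 lower, no larger shares than the 24.3% and 9.10% of all genes, and 3 were higher and 4 lower with median ratio scaling. There were 3 higher when HIF1α-ko replicate 2, HIF1α-ko replicate 3 or HIF2α-ko replicate 3 was left out and 5 lower without HIF1α-ko replicate 1. They numbered 10 higher and 6 lower with the replicate block and 13 higher and 6 lower with replicate 1 of both groups left out, and the median of 0.07 became -0.06 with median ratio scaling. TYMS, which makes thymidylate, was lower, at 31.8, 14.3 and 14.2 TPM in HIF1α-ko and 73, 57.1 and 57.4 TPM in HIF2α-ko (log2 difference -1.68 ± 0.29, adjusted p = 0.0058), and so was the clamp loader RFC2 (16.3 against 35.3 TPM, log2 difference -1.06 ± 0.12, adjusted p = 0.0012). MCM6, of the replicative helicase, was higher (4.62 against 1.92 TPM, log2 difference 0.94 ± 0.17, adjusted p = 0.0061), as was USP1 (3.11 against 1.14 TPM, log2 difference 0.96 ± 0.16, adjusted p = 0.0052).

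In lists of mitochondrial genes the calls changed with the scaling. Of 44 nuclear genes of the respiratory chain 9 were higher and 3 lower, below the shares of 24.3% and 9.10% among all genes, but with median ratio scaling 0 were higher and 4 lower, and with the replicate block 15 were higher. Only 4 were higher when replicate 3 of HIF1α-ko or replicate 2 of HIF2α-ko was left out, and 14 when replicate 1 of both was. The median of 0.12 became -0.13 with median ratio scaling. NDUFB8, a subunit of complex I, was lower in either scaling, at 232, 171 and 181 TPM in HIF1α-ko and 430.2, 367 and 369.7 TPM in HIF2α-ko (log2 difference -1.01 ± 0.13, adjusted p = 0.0022). SDHA (147 against 96 TPM, 0.61 ± 0.10), UQCRFS1 (26.2 against 17.8 TPM, 0.53 ± 0.11) and NDUFS3 (87 against 62.7 TPM, 0.47 ± 0.10) were higher in the deposited scale and not called with median ratio scaling, at adjusted p of 0.099, 0.086 and 0.24. Of 13 mitochondrially encoded genes 2 were higher, MT-ND6 at 107, 92.9 and 66.9 TPM in HIF1α-ko and 59.3, 54.6 and 41.8 TPM in HIF2α-ko (log2 difference 0.75 ± 0.20, adjusted p = 0.025) and MT-ND4 (1486 against 846 TPM, log2 difference 0.76 ± 0.24, adjusted p = 0.042), 0 with median ratio scaling and 9 with the replicate block. MT-CO1 (adjusted p = 0.059, with the block 0.009) and MT-ND4L (adjusted p = 0.065, with the block 0.0044) were among those 9. Without HIF1α-ko replicate 2, HIF2α-ko replicate 2 or HIF2α-ko replicate 3 no member was called, 1 was higher without HIF2α-ko replicate 1 and 5 without HIF1α-ko replicate 3. With replicate 1 of both groups left out 7 were higher.

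Of 24 genes of cholesterol synthesis 6 were higher and 3 lower, near the shares of 24.3% and 9.10% among all genes, with 1 higher and 4 lower under median ratio scaling and 10 higher and 4 lower with the block. The median of 0.14 became -0.10 with median ratio scaling. With a library left out 1 to 3 were higher, whichever it was. INSIG1, the feedback inhibitor of this pathway, was lower, at 477, 462 and 341 TPM in HIF1α-ko and 882, 780.2 and 873 TPM in HIF2α-ko (log2 difference -1.0 ± 0.14, adjusted p = 0.0024), and IDI1 was higher (65.6 against 35.1 TPM, log2 difference 0.89 ± 0.19, adjusted p = 0.012), a call lost without HIF1α-ko replicate 3. MVD (176 against 142 TPM, log2 difference 0.31 ± 0.09, adjusted p = 0.033) lost its call in all 6 fits with a library left out. Of 32 genes of ribosome biogenesis 8 were higher and 4 lower, where 24.3% and 9.10% of all genes were. With median ratio scaling 5 were higher and 6 lower, and with the block 14 higher and 4 lower. Without HIF1α-ko replicate 1, 14 were higher, and without any other library 1 to 3. Besides PPAN, FBL, the methyltransferase of ribosomal RNA, was lower, at 181, 147 and 172 TPM in HIF1α-ko and 487, 507 and 516 TPM in HIF2α-ko (log2 difference -1.59 ± 0.10, adjusted p = 9.38e-05), and PES1 was lower (65.8 against 94.4 TPM, log2 difference -0.51 ± 0.09, adjusted p = 0.0064). NOP56, a partner of FBL in the same particle, was higher, at 7.19, 9.14 and 7.07 TPM in HIF1α-ko and 3.70, 3.46 and 3.95 TPM in HIF2α-ko (log2 difference 0.90 ± 0.15, adjusted p = 0.0046).

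The vector and HIF1α/2α-ko libraries, which took no part in the comparison, were read for the same genes. Of the 1067 genes lower in HIF1α-ko, 752 (70.5%) were also lower in HIF1α/2α-ko than in vector, where 38.4% of all genes tested were. Of the 2846 genes higher in HIF1α-ko, 611 (21.5%) were lower in HIF1α/2α-ko than in vector. For differences of at least 1 the counts were 278 of 358 (77.7%) and 102 of 422 (24.2%). The median of HIF1α/2α-ko minus vector was -0.35 for the lower genes, 0.57 for the higher genes and 0.21 for all genes. BNIP3 was -2.83 (adjusted p = 1.56e-06, in the fit of all 12 libraries), GYS1 -2.49 (adjusted p = 4.58e-07) and CA9 -2.45 (adjusted p = 1.52e-06). ACKR3 was higher in HIF1α-ko than in HIF2α-ko but far lower in HIF1α/2α-ko than in vector, at -3.49 (adjusted p = 6.94e-07), and so was CCN4, at -1.71 (adjusted p = 0.00012).

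Set against vector, the 2 knockouts did not deviate by equal amounts, and both comparisons share the vector libraries. BNIP3 differed from vector by -3.76 in HIF1α-ko (adjusted p = 1.97e-06) and by 0.07 in HIF2α-ko (adjusted p = 0.86). PFKFB4 differed by -2.56 (adjusted p = 3.28e-06) and 0.81 (adjusted p = 0.0092). ACKR3 differed by 0.22 in HIF1α-ko (adjusted p = 0.45) and by -2.57 in HIF2α-ko (adjusted p = 0.000211), and LOXL2 by 0.56 (adjusted p = 0.002) and -0.90 (adjusted p = 0.000848). The vector mean lay nearer to HIF2α-ko for 651 of the 1067 lower genes (61.0%) and for 1984 of the 2846 higher genes (69.7%), where it did so for 60.4% of all genes tested. For differences of at least 1 this held for 249 of 358 lower genes (69.6%) and 323 of 422 higher genes (76.5%). The first vector library stood apart from the other two, and without it these shares were 69.8% and 76.1%. The order of the 2 sides changed with the scaling. With median ratio scaling of all 12 libraries the vector mean lay nearer to HIF2α-ko for 66.1% of lower and 63.6% of higher genes, against 57.8% of all. For differences of at least 1 the shares were then 74.0% and 72.0%.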

How the data were processed

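Messenger RNA of U87 cells was sequenced in 12 libraries, 3 for each of vector, single knockout and dual knockout cells. The authors deposited TPM values for 20263 genes. Libraries were made with a commercial mRNA kit. The submitters' processing notes name GRCh38, FastQC 0.11.2, Trimmomatic 0.36, HISAT2 2.0 and bedtools 2.26.0 without their roles, and the counting program and the annotation are not given in the sources used here. TPM scales each library to a fixed total, so that a change in abundant transcripts moves all others, and it keeps no depth, so no counting error could be given. Groups were taken from the labels. The vector columns, which carry no knockout code, were assigned by its absence and have no replicate number.

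TPM was transformed to log2(TPM + 1), and fold differences of low genes are understated by the pseudocount of 1. The 11731 genes with at least 1 TPM in at least 3 of the 12 libraries were fitted with limma 3.58.1 (R 4.3.3, empirical Bayes with a mean-variance trend) on the 6 libraries of the single knockouts. Adjusted p-values are two-sided, by Benjamini-Hochberg over all genes tested, at a threshold of 0.05. Values against vector come from such a fit of all 12 libraries. An exact permutation test of 3 against 3 libraries cannot go below p = 0.1 and was not used.

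The comparison and the 22 gene lists were chosen with earlier results of these data known. The S and G2/M lists are those of Seurat 5.3.0. Named by rule were the genes the study discusses, the 12 largest differences in each direction among called genes whose libraries do not overlap, whose higher group has a mean of at least 5 TPM and which keep their direction with median ratio scaling, and of each list the 4 tested members with the smallest p, with all HIF subunits and sensors. This gave 116 genes, 114 of them tested, and 1 of the lists and some of the genes are not reported here. Symbols were matched for 19761 identifiers and 463 more through GENCODE 29, which also gave positions in GRCh38. Promoters came from a RefSeq table of GRCh38.p14. Tables were written with numpy 2.4.6 and pandas 2.3.3 under Python 3.11.15 and drawn with matplotlib 3.10.9.

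Both single knockouts carry replicate numbers 1, 2 and 3. Deviations from the group mean correlated across genes at 0.47, 0.24 and 0.20 for libraries of the same number, all above 0.1, and the numbers were taken as pairs in an alternative fit. The main fit has no block, and the pairing enters as the alternative with the replicate number as a block. It rests on the values, because what a number marks is not given in the sources used here. Libraries 2 and 3 of different numbers correlated at 0.23 and 0.16, and replicate 1 with another number at -0.36 to -0.27. The values thus set replicate 1 apart in both groups but do not tell numbers 2 and 3 from each other. Alternatives changed the pseudocount, the filter, the scaling, the libraries in the fit, the mean-variance trend, the block and the libraries left out.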

Additional observations from a re-analysis of the deposited data

How the results depend on the processing

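The count of genes higher in HIF1α-ko, 2846, was 1453 with median ratio scaling, 1751 with quantile normalization, 4672 with the replicate block, 4438 with the replicate block over 9 knockout libraries and 422 with a log2 difference of at least 1. With 1 library left out the count ran from 1359 without HIF1α-ko replicate 2 to 3578 without HIF1α-ko replicate 1. The count of lower genes, 1067, was 1681 with median ratio scaling, 2650 when that scaling was joined to the block, 358 with a log2 difference of at least 1, and 682 to 1237 with 1 library left out. The HIF1A difference ran from -0.95 to -0.66 with 1 library left out. The share of lower genes that were also lower in HIF1α/2α-ko than in vector, 70.5%, was 67.6% at a mean TPM of at least 5, 65.0% with median ratio scaling, 66.7% with quantile normalization, 67.2% with the block and 60.7% with both block and median ratio scaling. That of higher genes, 21.5%, was 19.4% with median ratio scaling, 23.2% with the block, 23.1% with the block over 9 libraries and 20.2% to 23.9% with 1 library left out. In these alternatives only the set of genes changed. The difference of HIF1α/2α-ko minus vector stayed that of the deposited TPM, so how its direction depends on the scaling was not examined. BAX (-0.082) and ARNT (-0.013), neither called, changed sign with median ratio scaling, with and without the block. The causes were not tested beyond the change of scaling or libraries itself.

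Of the 114 named genes tested, 114 kept direction and side of the threshold at a pseudocount of 0.1, 101 with median ratio scaling, where 10 lost and 1 gained a call, and 108 with quantile normalization, where ARNT2, BAK1, BMF, ABCC10 and MT-ND6 lost and FUT4 gained a call. Under the replicate block of the 6 libraries 108 did so, 6 gained a call and none lost one. With the block over 9 knockout libraries 1 lost a call, and with the block and median ratio scaling 3 did. Over the 6 fits with 1 library left out, 617 of the values kept both, 60 lost and 7 gained a call. Leaving out replicate 1 of both groups was chosen after seeing the data, as were the vector shares recomputed without a vector library. TPM keeps no depth, so it is not known how firmly the low values are measured, and 3 libraries a group limit every call.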

Other observations

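Several abundant genes outside the rule for naming also differed, and are named here with their values already known. TGFBI, a matrix protein induced by TGFβ, stood at 13704, 15523 and 14598 TPM in HIF1α-ko and 4149.9, 5769 and 5294 TPM in HIF2α-ko (log2 difference 1.54 ± 0.13, adjusted p = 0.000311). The transcription factor SMAD3, which carries TGFβ signals, was higher in HIF1α-ko as well (114 against 33.3 TPM, log2 difference 1.75 ± 0.17, adjusted p = 0.00057), as were the elastase inhibitor PI3 (362 against 87.7 TPM, log2 difference 2.03 ± 0.11, adjusted p = 4.05e-05), the heparan sulphate proteoglycan SDC4 (1614 against 589 TPM, log2 difference 1.47 ± 0.13, adjusted p = 0.000408) and HSPA5, a chaperone of the endoplasmic reticulum (1258 against 489 TPM, log2 difference 1.37 ± 0.35, adjusted p = 0.023). None of these 5 genes overlapped between groups, and only HSPA5 lost its call with a library left out, without HIF1α-ko replicate 2 or replicate 3.

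On the lower side ADAMTS1, a secreted metalloproteinase, stood at 58.2, 85.3 and 76.8 TPM in HIF1α-ko and 424, 488 and 447 TPM in HIF2α-ko (log2 difference -2.62 ± 0.15, adjusted p = 6.12e-05). The small GTPase RAB20 (12.9 against 88.7 TPM, log2 difference -2.69 ± 0.10, adjusted p = 1.24e-05), RARRES2, which encodes chemerin (28.7 against 184 TPM, log2 difference -2.64 ± 0.15, adjusted p = 6.5e-05) and the mitochondrial alanine transaminase GPT2 (10.9 against 61.6 TPM, log2 difference -2.40 ± 0.11, adjusted p = 3.14e-05) were lower too. SAA1, an acute phase protein, was lower (6.01 against 50.2 TPM, log2 difference -2.82 ± 0.30, adjusted p = 0.000864), but reads may be shared with its near-identical copy SAA2 and the value is uncertain.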
